A study of Mus musculus with 24 samples.

Results

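The 10 genes described here belong to the antioxidant response that the transcription factor NRF2 drives. They are Nfe2l2 (which encodes NRF2), Keap1, Gclc, Gclm, Gsr, Txnrd1, Srxn1, Hmox1, Nqo1 and G6pdx. They were taken by name from the gene probes of the arrays, every probe of each gene included, which gave 13 of 56605 gene probes. Of these, 12 passed the filter on dim signal, and all 10 genes were among the 21331 genes tested.

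RNA came from the livers of 24 male C57Bl/6J mice, 6 in each of 4 groups, and every mouse had its own Cy3-labelled array. LWT mice express PPARα in their hepatocytes and LKO mice do not, as the series title says, and each genotype received either CL316243 or its vehicle. CL316243 is an agonist of the beta3 adrenergic receptor, a receptor known chiefly from adipocytes. It was given by gavage at 3 mg/kg, and the control mice received 0.5% carboxymethyl cellulose alone. All mice ate a standard diet, were dosed at Zeitgeber time (ZT) 10 and gave their livers at ZT 16. How the receptor was removed from hepatocytes, and which part of Ppara was removed, is not given in the sources used here. The labels list the mice of a group as separate samples.

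NRF2 is held in the cytoplasm by KEAP1, which presents it for degradation. When reactive molecules modify KEAP1, NRF2 escapes, enters the nucleus, pairs with a small MAF protein and binds antioxidant response elements near its target genes. In liver these targets make and recycle glutathione and thioredoxin, supply NADPH, break down heme and detoxify quinones. BACH1 competes for the same elements, and Hmox1 is the target best known for its repression by BACH1. NRF2 itself is controlled mainly through its protein, which arrays do not measure.

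All levels below are log2 intensities after subtraction of the array's 75th percentile, so 0 marks that percentile and a step of 1 is a doubling. Levels are compared between mice for the same probe, never between probes. A gene is called when limma's adjusted p (Benjamini-Hochberg, over the 21331 genes) is under 0.05. Errors of differences are standard errors (SE) of the fit, with 6 mice in each group.

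The 75th percentile of the intensity lay between 397.4 and 577.7 on the 24 arrays, 26985 to 34202 of the 56605 probes were well above background, and 0 gene probes were saturated on any array. Ppara, the gene named in the genotype, was lower in LKO than in LWT mice. The brighter of its 2 probes was at 5.45 to 5.93 (median 5.66) in LWT vehicle, 5.70 to 6.42 (median 6.35) in LWT CL316243, 4.80 to 5.18 (median 5.01) in LKO vehicle and 3.06 to 4.85 (median 4.51) in LKO CL316243. The genotypes did not overlap under either treatment (exact permutation p = 0.00216, 2-sided, the smallest that 6 against 6 mice can give). Under vehicle the difference of -0.68 (SE 0.20) was not called across all genes (adjusted p = 0.158), while the second probe was (-0.92, SE 0.20, adjusted p = 0.0188). Both probes may lie outside the removed part, so they check the labels only in direction. All 8 hepatocyte markers (such as Alb and Ttr) were well above background in every group. In whole liver, fewer cells of a type and less RNA per cell cannot be told apart.

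Short stretches before the start sites of 5 members are shown because they hold a match to an antioxidant response element, the sequence NRF2 binds. Of the 10 genes, 7 had an entry in the RefSeq table of promoters (GRCm38.p6), in 9 windows that each run from 250 bases before to 50 bases after a start site. The core TGACNNNGC was searched on both strands, and capitals mark the match, written as it reads on the strand of the gene. A match on the other strand therefore appears as its reverse complement.
Srxn1: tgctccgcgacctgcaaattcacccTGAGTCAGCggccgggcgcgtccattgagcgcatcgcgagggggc
Txnrd1: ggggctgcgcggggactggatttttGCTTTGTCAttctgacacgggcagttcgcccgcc
Gclm: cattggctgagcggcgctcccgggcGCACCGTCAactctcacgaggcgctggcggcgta
G6pdx: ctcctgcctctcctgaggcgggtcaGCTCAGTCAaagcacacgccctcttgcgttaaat
Nfe2l2: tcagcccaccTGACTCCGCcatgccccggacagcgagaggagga

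The Srxn1 stretch is chr2:152105454-152105523 (plus strand), and its capitals mark another form of the element, TGANTCAGC, at position -45 from the start. TGANTCAGC was added after the sequences had been read, shares the TGA and GC ends with the core, and occurred in 1.19% of the 32851 windows of the table. The core itself occurred in 12.4% of them. The Txnrd1 stretch is chr10:82859089-82859147 (plus strand, the second of 3 windows of the gene), with the core at -92. The Gclm stretch is chr3:122245398-122245456 (plus strand), with the core at -134. The G6pdx stretch is chrX:74428904-74428962 (minus strand), with the core at -57. The Nfe2l2 stretch is chr2:75704870-75704913 (minus strand), with the core at -240. Srxn1 also held the core at position 28 after the start. The windows of Nqo1 and Keap1 held neither form, which says only that these letters are not in these windows. Among the genes printed, Srxn1 and Txnrd1 rose with CL316243 in both genotypes, Gclm fell in LWT mice, and G6pdx and Nfe2l2 were not called.

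Beta3 agonist treatment raised Txnrd1 and Srxn1 in both genotypes, and the response of Gclc and of Nqo1 depended on the genotype. In LWT mice Txnrd1, Srxn1 and Gsr rose and Gclm fell, so 4 of 10 members were called where 38.3% of all genes tested were (18.9% higher and 19.4% lower). In LKO mice Hmox1, Gclc, Txnrd1 and Srxn1 rose and Nqo1 fell, so 5 of 10 were called where 40.3% of all genes were (20.9% higher and 19.4% lower). Both shares lie near the background. The median difference over the 10 genes was 0.09 in LWT and 0.19 in LKO mice, beside 0.01 and 0.03 over all genes. The 6 treated mice lay wholly beyond the 6 vehicle mice for 3 members in LWT mice (20.4% of all genes) and for 5 in LKO mice (20.8%). The effect itself differed between genotypes for 2 of 10 members, Gclc and Nqo1, where 5.41% of all genes were called (2.17% upward and 3.24% downward).

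**Figure D1:**
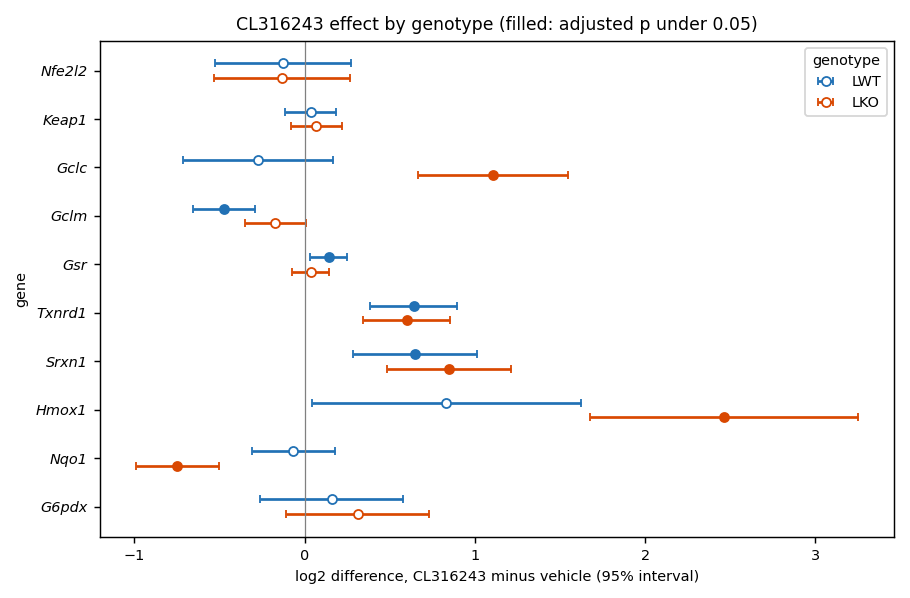
Log2 difference, CL316243 minus vehicle, for each gene in LWT (blue) and LKO (orange) mice, with the 95% interval as a bar and a filled point where the adjusted p is under 0.05 (6 mice in each group). Hmox1 and Gclc lie farther right in LKO mice at 2.46 and 1.10, Nqo1 lies left of 0 in LKO mice at -0.75, and the points of Txnrd1 and Srxn1 lie close together.

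The 2 regulators on the list were not called in any of the 5 comparisons. Nfe2l2 was at 2.31 to 2.93 (median 2.80) in LWT vehicle, 2.09 to 3.42 (median 2.50) in LWT CL316243, 2.61 to 2.77 (median 2.73) in LKO vehicle and 2.15 to 2.93 (median 2.59) in LKO CL316243. Treated mice scattered to both sides of the vehicle mice, with an SD of 0.54 in treated LWT mice beside 0.07 in LKO vehicle. The treatment difference was -0.13 (95% interval -0.53 to 0.27) in LWT and -0.13 (-0.53 to 0.27) in LKO mice. The second Nfe2l2 probe, placed on another transcript, gave -0.23 (SE 0.23) in both genotypes and was not called either.

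Keap1, which encodes the adaptor that keeps NRF2 low, varied least in vehicle LWT mice and overlapped between all groups. Its lowest, median and highest levels were 2.61, 2.73 and 2.77 in LWT vehicle and 2.54, 2.81 and 2.90 in LWT CL316243. In LKO mice they were 2.47, 2.72 and 2.85 under vehicle and 2.64, 2.76 and 2.86 under CL316243. The treatment difference was 0.04 in LWT (95% interval -0.12 to 0.19) and 0.07 in LKO mice (-0.08 to 0.22). Both intervals exclude a change of 0.3 on the log2 scale.

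**Figure D2:**
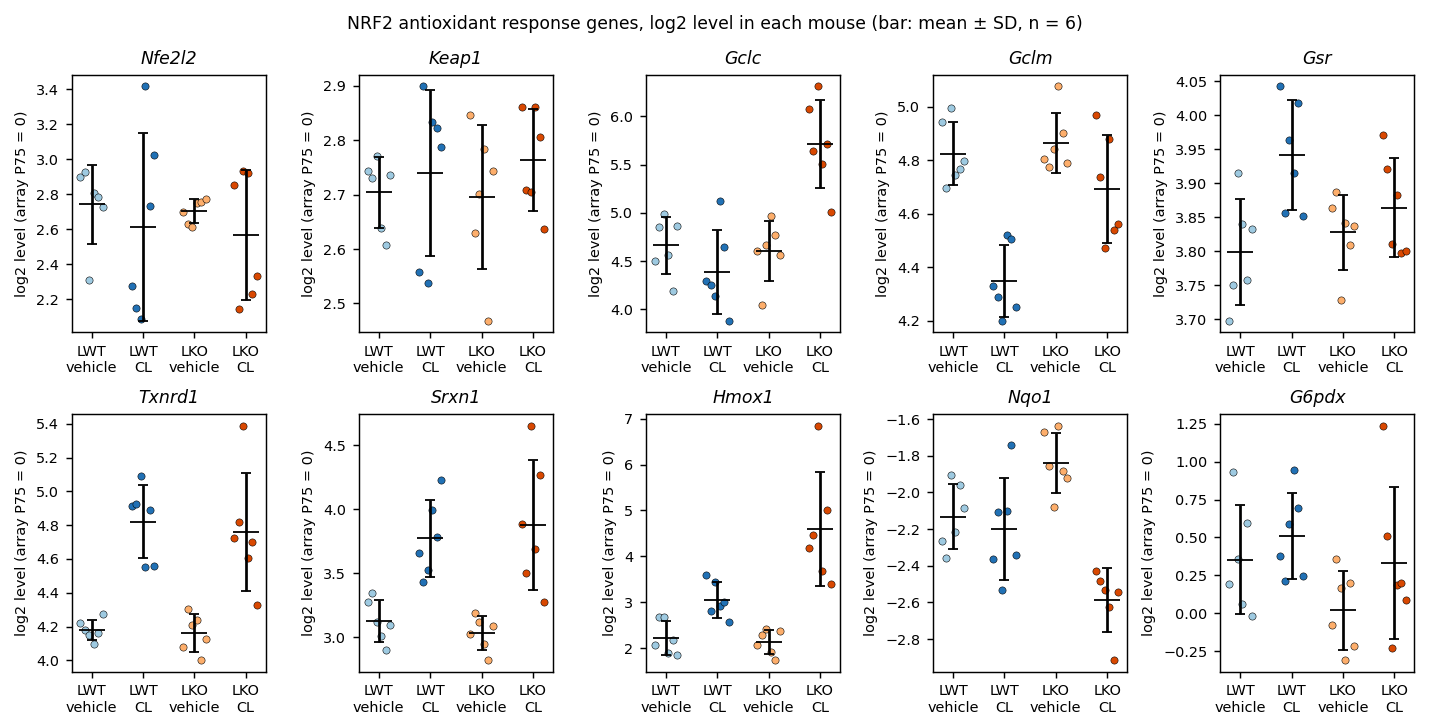
Log2 level of each of the 10 genes in each mouse by group (CL is CL316243), with the mean and SD of 6 mice as black bars; 0 is the array's 75th percentile and each panel has its own axis. The 6 LKO CL316243 mice lie above their vehicle mice for Hmox1, Gclc, Txnrd1 and Srxn1 and below them for Nqo1.

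Gclc and Gclm encode the catalytic and the modifier subunit of glutamate cysteine ligase, the enzyme that sets the pace of glutathione synthesis. Their differences with CL316243 had opposite signs in LKO mice, where only Gclc was called. In LWT mice both were negative, and only Gclm was called. Gclc (probe at mm9 chr9:77641296-77641355) was at 4.19 to 4.99 (median 4.71) in LWT vehicle and 3.88 to 5.12 (median 4.27) in LWT CL316243. It was at 4.04 to 4.97 (median 4.64) in LKO vehicle and 5.005 to 6.31 (median 5.68) in LKO CL316243. The LWT groups overlapped and the LKO groups did not. Gclc rose by 1.10 in LKO mice (SE 0.21, 2.15-fold, adjusted p = 0.000276), with 6 of 6 treated mice above the vehicle mean and values of 0.74 to 1.36 within single slides. In LWT mice the difference was -0.27 (SE 0.21, adjusted p = 0.334). The effects differed by 1.38 between genotypes (SE 0.30, interaction adjusted p = 0.00693). Within single slides this interaction was 0.65 to 1.79.

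Gclm (probe at mm9 chr3:121967737-121967796) was at 4.70 to 4.99 (median 4.78) in LWT vehicle and 4.20 to 4.52 (median 4.31) in LWT CL316243. Every treated LWT mouse lay below every vehicle mouse, and Gclm fell by 0.48 (SE 0.09, adjusted p = 0.00017). In LKO mice the levels were 4.77 to 5.08 (median 4.82) under vehicle and 4.47 to 4.97 (median 4.65) under CL316243, and these ranges overlapped. The difference there was -0.17 (SE 0.09, adjusted p = 0.121). Without LKO CL316243 replicate 1, the highest of its group, the difference was -0.23 and called (adjusted p = 0.0373). The effects were not called different between genotypes (0.30, SE 0.12, interaction adjusted p = 0.176).

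Gsr encodes glutathione reductase, which returns oxidised glutathione to its reduced form with NADPH. It was at 3.70 to 3.92 (median 3.79) in LWT vehicle and 3.85 to 4.04 (median 3.94) in LWT CL316243, so the groups overlapped although 6 of 6 treated mice lay above the vehicle mean. It rose by 0.14 (SE 0.05, 1.10-fold, adjusted p = 0.0358). This call was lost under 7 other settings, with adjusted p up to 0.164, and when any of 6 mice was left out (LWT vehicle replicates 1, 2 and 5, LWT CL316243 replicates 1, 3 and 5; adjusted p 0.0601 to 0.0895). Within single slides the difference was 0.01 to 0.23. In LKO mice Gsr was at 3.73 to 3.89 under vehicle and 3.80 to 3.97 under CL316243, a difference of 0.04 (SE 0.05, adjusted p = 0.61).

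The 2 thioredoxin system genes rose in both genotypes, and neither effect was called different between them. Txnrd1 encodes the cytosolic thioredoxin reductase, and its brighter probe lies at mm9 chr10:82360230-82360289. It was at 4.10 to 4.27 (median 4.17) in LWT vehicle and 4.55 to 5.09 (median 4.90) in LWT CL316243. In LKO mice it was at 4.00 to 4.30 (median 4.17) under vehicle and 4.33 to 5.39 (median 4.71) under CL316243. Treated and vehicle mice did not overlap in either genotype. Txnrd1 rose by 0.64 in LWT mice (SE 0.12, adjusted p = 0.000284) and by 0.60 in LKO mice (SE 0.12, adjusted p = 0.000542), which is 1.56-fold and 1.52-fold. The second probe of Txnrd1 gave 0.57 (SE 0.13) and 0.71 (SE 0.13), both called. The interval of the difference between the genotypes' effects ran from -0.40 to 0.32. Within single slides the effect was 0.34 to 0.81 in LWT and 0.33 to 0.94 in LKO mice.

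Srxn1 encodes sulfiredoxin, which repairs over-oxidised peroxiredoxins. It was at 2.90 to 3.34 (median 3.11) in LWT vehicle, 3.43 to 4.23 (median 3.72) in LWT CL316243, 2.82 to 3.19 (median 3.05) in LKO vehicle and 3.28 to 4.65 (median 3.79) in LKO CL316243. As for Txnrd1, the vehicle groups overlapped, and in each genotype the treated mice lay wholly above the vehicle mice of that genotype. The lowest treated LKO mouse (3.28) was below the highest LWT vehicle mouse (3.34). Srxn1 rose by 0.65 in LWT mice (SE 0.18, 1.57-fold, adjusted p = 0.0054) and by 0.85 in LKO mice (SE 0.18, 1.80-fold, adjusted p = 0.000556). The effects differed by 0.20, with a 95% interval of -0.31 to 0.71. Within single slides they were 0.17 to 1.01 in LWT and 0.47 to 1.09 in LKO mice.

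Hmox1 encodes heme oxygenase 1, the inducible enzyme that opens heme to biliverdin, and had the largest treatment difference of the 10 genes in LKO mice. Its probe at mm9 chr8:77624406-77624466 was at 1.84 to 2.68 (median 2.13) in LWT vehicle and 2.56 to 3.59 (median 2.96) in LWT CL316243. In LKO mice it was at 1.74 to 2.41 (median 2.18) under vehicle and 3.39 to 6.85 (median 4.32) under CL316243. The LKO groups were far apart, and the treated LKO mice spread over more than 3 log2 units. Hmox1 rose by 2.46 in LKO mice (SE 0.38, 5.51-fold, adjusted p = 3.04e-05). In LWT mice 6 of 6 treated mice lay above the vehicle mean, but the ranges overlapped and the difference of 0.83 (SE 0.38) was not called (adjusted p = 0.090, exact permutation p = 0.00649).

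The larger Hmox1 effect in LKO mice was not called as a difference between genotypes (1.63, SE 0.54, interaction adjusted p = 0.0846). Without LKO CL316243 replicate 3, the mouse at 6.85, the rise in LKO mice was 2.01 and the interaction 1.18, now called (adjusted p = 0.0383). It was also called without replicate 6 of that group, the lowest (1.87, adjusted p = 0.0333), with array weights (adjusted p = 0.0173) and with the replicate number as a block (adjusted p = 0.0420). The LWT effect was called with array weights (adjusted p = 0.0110), in a fit of only the LWT groups (adjusted p = 0.00693) and with the block (adjusted p = 0.0478). Within single slides the effect was 1.61 to 3.26 in LKO and 0.48 to 1.27 in LWT mice. The second Hmox1 probe, placed on another transcript, was well above background on 1 of 6 LWT vehicle arrays and on 0 of 6 in each other group. It was too dim for a difference to be read from it. Its mean was -7.04 in LKO vehicle and -5.42 in LKO CL316243, and -6.52 in LWT vehicle and -6.94 in LWT CL316243.

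Nqo1 encodes a quinone reductase and is often read as the standard NRF2 target, yet it went down in LKO mice. Its probe (mm9 chr8:109912440-109912499) was dim but well above background on all 24 arrays. The level was -2.36 to -1.91 (median -2.15) in LWT vehicle and -2.53 to -1.74 (median -2.22) in LWT CL316243. It was -2.08 to -1.64 (median -1.87) in LKO vehicle and -2.91 to -2.43 (median -2.54) in LKO CL316243. The LWT groups overlapped throughout, and every treated LKO mouse lay below every LKO vehicle mouse. Nqo1 fell by 0.75 in LKO mice (SE 0.12, 1.68-fold, adjusted p = 3.41e-05), while the LWT difference was -0.07 (SE 0.12, adjusted p = 0.7).

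The Nqo1 effects differed by -0.68 between genotypes (SE 0.17, interaction adjusted p = 0.0154). Within single slides the fall in LKO mice was -1.01 to -0.51 and the interaction -1.05 to -0.28. With normexp background correction, which shrinks differences of dim probes, the LKO effect was -0.44 and the interaction -0.45, both still called.

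G6pdx encodes glucose-6-phosphate dehydrogenase, which makes NADPH in the pentose phosphate pathway, and was not called in any comparison. It was at -0.02 to 0.93 (median 0.27) in LWT vehicle, 0.21 to 0.95 (median 0.48) in LWT CL316243, -0.31 to 0.36 (median 0.04) in LKO vehicle and -0.23 to 1.24 (median 0.19) in LKO CL316243. All 4 groups overlapped. The treatment difference was 0.16 (95% interval -0.26 to 0.58) in LWT and 0.31 (-0.11 to 0.73) in LKO mice, so a change of 1.5-fold upward in LKO mice was within the interval.

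The treated LKO mice varied among themselves. Replicate 3 of that group was highest for Hmox1, at 4.72 above the LKO vehicle mean, and also for Gclc (1.71), Srxn1 (1.62) and Txnrd1 (1.23). Replicate 6 was lowest for the same genes, at 1.26 for Hmox1, 0.40 for Gclc, 0.24 for Srxn1 and 0.17 for Txnrd1. All 6 mice of the group lay above the vehicle mean for these 4 genes, and the fall of Nqo1 was of similar size in replicates 3 and 6 (-0.69 and -0.70). Replicate 3 did not lead for every member. It was also highest for Nfe2l2 (0.23), but lowest of the group for Gclm (-0.39) and G6pdx (-0.25). Without replicate 3 the LKO effect was 0.69 for Srxn1 and 0.47 for Txnrd1, both still called. The array of replicate 3 had the lowest 75th percentile of the treated LKO group (413.4, where the highest was 502.2). It also had the fewest probes well above background in that group (27921, where the most were 33995).

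**Figure D3:**
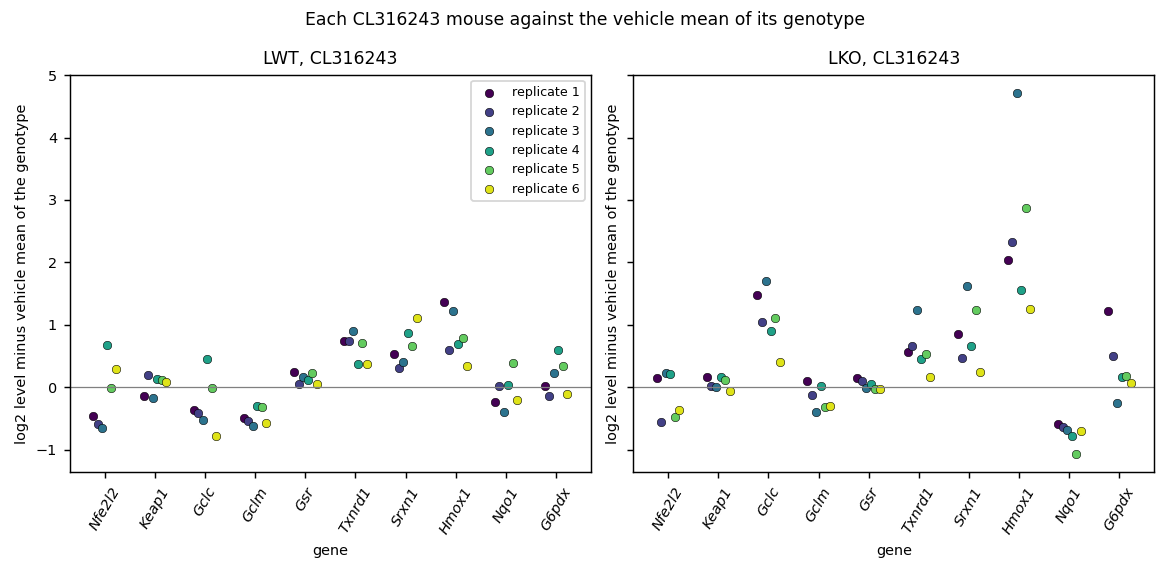
Log2 level of each CL316243 mouse minus the vehicle mean of its own genotype, by gene, for LWT (left) and LKO (right) mice. Each colour is 1 replicate number, which was not treated as a link between mice across the panels. Replicate 3 of the LKO mice lies highest for Hmox1 at 4.72, and replicate 6 lowest at 1.26.

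The same replicate 3 had the lowest Ppara level of its group (3.06) and the largest summed level of 6 neutrophil markers. That sum, on a linear scale where 1 is the array's 75th percentile, reached 163.8 in this mouse and 98.6 to 123.0 in the other treated LKO mice. By group it was 92.4 to 103.5 in LWT vehicle, 101.8 to 118.1 in LWT CL316243, 82.4 to 97.7 in LKO vehicle and 98.6 to 163.8 in LKO CL316243. The brightest markers weigh most in a linear sum, so it does not follow all 6 alike. Its median was 87.4 in LKO vehicle and 109.9 in LKO CL316243, while single markers differed by -0.28 (Ly6g) to 2.55 (Mmp8). With CL316243, 2 of 6 neutrophil markers rose and 1 fell in LWT mice, which is 50% beside the 38.3% of all genes called, and 5 of 6 rose in LKO mice, which is 83.3% beside 40.3%. S100a8 and S100a9, which encode the calprotectin subunits abundant in neutrophils, rose by 2.30 and 2.25 in LKO mice. The receptor gene Cxcr2 and the protease gene Mmp8 were well above background on 1 and 2 of the 6 LKO vehicle arrays, against 4 and 6 with CL316243. Neutrophil markers were not called between the genotypes under CL316243 (0 of 6 by limma, 0 at an unadjusted p under 0.05).

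Macrophages of the liver break down heme and carry Hmox1, so their markers are given beside it. The summed level of 7 Kupffer cell and macrophage markers, all well above background in every group, was 53.4 to 110.9 in LWT vehicle, 60.2 to 116.2 in LWT CL316243, 58.5 to 100.2 in LKO vehicle and 54.3 to 100.05 in LKO CL316243. None of the 7 was called by limma in any comparison, and 0 had an unadjusted p under 0.05.

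Some markers of other cell types were also called with CL316243. The summed level of 5 cholangiocyte markers was 3.67 to 6.47 in LWT vehicle, 4.19 to 14.1 in LWT CL316243, 3.51 to 6.70 in LKO vehicle and 7.08 to 14.1 in LKO CL316243. The LKO groups did not overlap, and replicate 3 of the treated LKO mice, highest for Hmox1, was again the highest of its group at 14.1. Replicate 3 of the treated LWT mice also reached 14.1, with Hmox1 at 1.22 above the LWT vehicle mean. Of these markers, Sox9 rose by 1.47 in LWT and 2.18 in LKO mice, Spp1 rose by 0.96 in LKO mice, and the other 3 were not called. That is 20% called in LWT mice beside 38.3% of all genes, and 40% in LKO mice beside 40.3%. Of 6 endothelial markers, 2 rose and 1 fell in LWT mice (50% beside 38.3%). In LKO mice Lyve1 rose by 2.39 (1.18 in LWT mice) and 1 marker fell (33.3% beside 40.3%). The summed endothelial level overlapped between all 4 groups (34.6 to 46.0 in LKO vehicle and 35.9 to 47.3 in LKO CL316243).

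Of 5 tested lymphocyte markers, 1 rose and 3 fell in LKO mice (80% beside 40.3%), and 1 fell in LWT mice (20% beside 38.3%). Among them, Cd3g fell by 1.01 and Ptprc by 0.38 in LKO mice, and Cd3e rose by 0.24. Cd3g was well above background on 5 LKO vehicle arrays and on 2 LKO CL316243 arrays. Of 6 stellate cell and fibroblast markers, 2 rose in each genotype and 1 fell in LWT mice. That is 50% called in LWT mice beside 38.3% of all genes, and 33.3% in LKO mice beside 40.3%. Their summed level was 47.3 to 68.3 in LKO vehicle and 65.4 to 82.6 in LKO CL316243. None of the 3 tested adipocyte markers was called for the CL316243 effect in either genotype (0 by limma, 0 at an unadjusted p under 0.05). Between genotypes, 1 of 3 was lower in LKO mice under vehicle (33.3% beside 1.18%) and 1 under CL316243 (33.3% beside 15.9%). Under CL316243 it was Cfd, at -2.34 (adjusted p = 0.0394). Cfd was well above background on 6 arrays of each LWT group, 2 of LKO vehicle and 3 of LKO CL316243. The part of any cell type in the levels of the 10 genes was not tested.

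Under vehicle none of the 10 genes was called between the genotypes (1.18% of all genes were, 0.398% higher and 0.778% lower in LKO mice, and 1.8% had wholly separate groups), and 1 had an unadjusted p under 0.05 in limma. That gene was Nqo1, higher in LKO mice by 0.29 (SE 0.12, adjusted p = 0.44), with all 6 LKO mice above the LWT mean. The other 9 differences ran from -0.33 for G6pdx to 0.04 for Gclm. For Hmox1 the 95% interval was -0.88 to 0.70, which leaves room for a difference of over 1.5-fold.

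Under CL316243 the genotypes differed for 4 of 10 members, where 15.9% of all genes were called (7.74% higher and 8.17% lower in LKO mice). Hmox1 was higher in LKO than LWT mice by 1.54 (SE 0.38, 2.91-fold, adjusted p = 0.0066), Gclc by 1.32 (SE 0.21, 2.50-fold, adjusted p = 9.73e-05) and Gclm by 0.34 (SE 0.09, adjusted p = 0.00793). Nqo1 was lower by 0.39 on the log2 scale in LKO mice, at a mean of -2.59 beside -2.20 in LWT mice (adjusted p = 0.0246). All 6 LKO mice lay on the same side of the LWT mean for each of the 4, but no member had wholly separate groups (6.57% of all genes did). This comparison shares its treated mice with the treatment effects above and adds no independent observation.

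In a fit of only the 2 groups under CL316243, Hmox1 (adjusted p = 0.0668), Gclm (0.0529) and Nqo1 (0.0850) were no longer called. That fit takes the spread from treated mice alone. The SD of Hmox1 was 1.24 in LKO and 0.39 in LWT mice under CL316243, beside 0.27 and 0.37 under vehicle. Why the calls were lost was not tested. Nqo1 was also not called without a filter on dim probes (adjusted p = 0.0575) or without LKO CL316243 replicate 5 or LWT CL316243 replicate 2 or 5 (0.0712, 0.0523 and 0.0696), and its difference was -0.24 with normexp and -0.59 with array weights.

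Beyond the 10 genes, 72 others of the pathway were listed by role, and 69 of them were tested. Gsta1 was not found under that name, and Slc7a11 and Ggt1 did not pass the filter. In LWT mice 13 rose and 15 fell with CL316243, which is 40.6% beside the background of 38.3%. In LKO mice 17 rose and 20 fell, which is 53.6% beside 40.3%. The median difference was near 0 in LWT mice (-0.01) and -0.08 in LKO mice, beside 0.01 and 0.03 over all genes. The effect differed between genotypes for 7 of 69 genes, 3 upward and 4 downward in LKO relative to LWT mice (10.1% beside 5.41%). Between genotypes, 2 of 69 were called under vehicle (2.9% beside 1.18%) and 15 under CL316243 (21.7% beside 15.9%), 9 higher and 6 lower in LKO mice. Without LWT vehicle replicate 3 the count for the interaction was 11 and that under vehicle 4.

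In the lists that follow, the share of genes called is to be read against 38.3% of all genes in LWT and 40.3% in LKO mice. Among 11 genes that control or partner NRF2, 4 rose and 2 fell in LWT mice (54.5%), and 6 rose and 1 fell in LKO mice (63.6%). Maff encodes a small MAF protein, the kind that pairs with NRF2 or BACH1. It was at -1.46 to -0.41 (median -0.69) in LWT vehicle, -0.62 to 1.11 (median 0.02) in LWT CL316243, -1.51 to -0.46 (median -0.85) in LKO vehicle and 1.08 to 2.61 (median 1.67) in LKO CL316243. The LKO groups were far apart and the LWT groups overlapped. Maff rose by 0.93 in LWT (SE 0.28, adjusted p = 0.011) and by 2.70 in LKO mice (SE 0.28, adjusted p = 3.0e-07), and the effects differed by 1.78 (SE 0.39, adjusted p = 0.0076). Its relative Mafg fell by 0.83 in LWT mice and was at -0.06 in LKO mice (interaction 0.77, SE 0.09, adjusted p = 1.3e-05).

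Nfe2l1 encodes NRF1, a relative of NRF2 that controls proteasome genes. It was at 2.98 to 3.29 (median 3.08) in LWT vehicle, 3.96 to 4.31 (median 4.20) in LWT CL316243, 2.46 to 2.94 (median 2.60) in LKO vehicle and 2.86 to 3.18 (median 3.09) in LKO CL316243. The treated LKO mice thus sat near the level of untreated LWT mice. Nfe2l1 rose by 1.05 in LWT and by 0.42 in LKO mice, with an interaction of -0.63 (SE 0.12, adjusted p = 0.0024). It was the only regulator on the list called between genotypes under vehicle (-0.48, SE 0.09, adjusted p = 0.0031).

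Btrc, a subunit of a ubiquitin ligase that also acts on NRF2, fell by 1.07 in LWT and by 1.11 in LKO mice, and by 0.53 and 0.47 with normexp. Syvn1, which encodes another ubiquitin ligase with NRF2 among its targets, was higher in LKO than LWT mice under CL316243 by 0.96 (SE 0.27, adjusted p = 0.016).

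**Figure D4:**
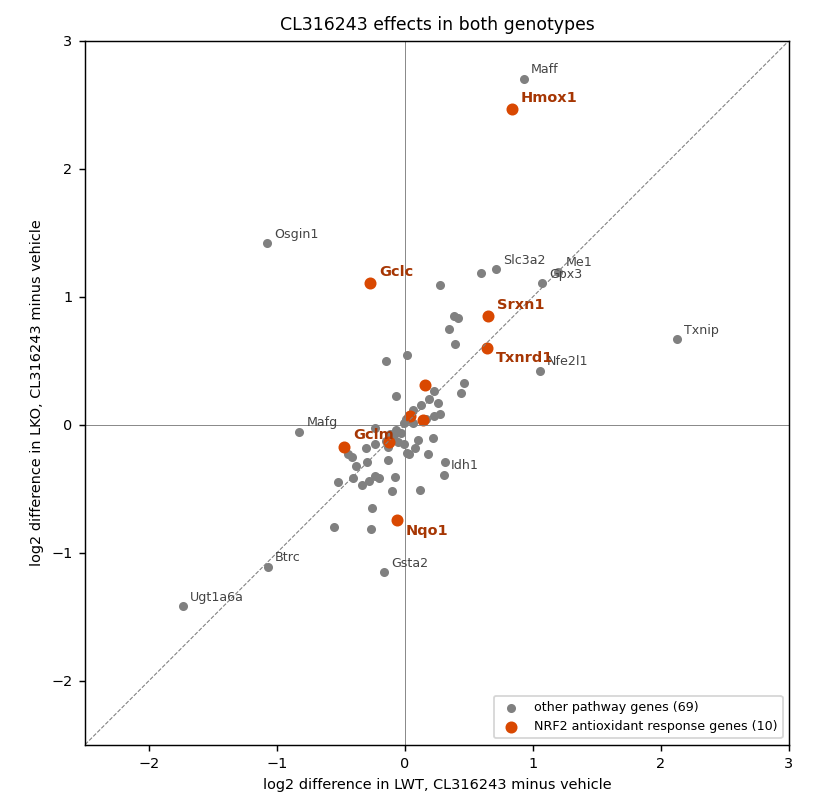
Log2 difference of CL316243 minus vehicle in LWT mice (x axis) against LKO mice (y axis) for the 69 other pathway genes (grey) and the 10 NRF2 antioxidant response genes (orange), with equal effects on the dashed line; grey names are the largest called differences. Maff, Hmox1, Gclc and Osgin1 lie above the line, and Txnip, Nfe2l1 and Idh1 below it.

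Among the other targets, Osgin1, an oxidative stress response gene, moved in opposite directions. It was at 4.09 to 5.25 (median 4.64) in LWT vehicle, 2.93 to 4.53 (median 3.44) in LWT CL316243, 3.89 to 4.67 (median 4.32) in LKO vehicle and 4.63 to 6.19 (median 5.86) in LKO CL316243. The treated mice of the 2 genotypes did not overlap, while within each genotype the treated and vehicle ranges did. Osgin1 fell by 1.08 in LWT mice (SE 0.28, adjusted p = 0.0039) and rose by 1.42 in LKO mice (SE 0.28, adjusted p = 0.00036), and the effects differed by 2.50 (SE 0.40, adjusted p = 0.0003).

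Txnip, whose protein binds and inhibits thioredoxin, rose by 2.12 in LWT and by 0.67 in LKO mice (interaction -1.46, SE 0.32, adjusted p = 0.0077). Its rise in LKO mice was not called in a fit of only the LKO groups (adjusted p = 0.0563) or without LKO CL316243 replicate 4, 5 or 6 or LKO vehicle replicate 6 (0.0524 to 0.0546). With the mean over its probes the interaction was -2.24. It was at 3.04 to 3.51 (median 3.13) in LWT vehicle, 4.85 to 6.10 (median 5.17) in LWT CL316243, 2.79 to 3.40 (median 3.20) in LKO vehicle and 2.65 to 4.27 (median 4.15) in LKO CL316243. The treated LWT mice lay above all other groups. In the wider thioredoxin and peroxiredoxin list 2 of 11 genes rose and 3 fell in each genotype (45.5% in both, beside 38.3% in LWT and 40.3% in LKO mice).

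Of 8 tested genes of glutathione synthesis and peroxidases, 3 rose and 1 fell in LWT mice, and 2 rose and 2 fell in LKO mice (50% in both, beside 38.3% and 40.3%). Slc3a2, the heavy chain of the cystine transporter, rose by 0.71 in LWT and by 1.21 in LKO mice (SE 0.21 in both), and by 0.71 in LKO mice when its probes were averaged. Gpx3, the secreted glutathione peroxidase, rose by 1.07 and 1.11 (SE 0.26 in both). Of 11 glutathione transferases, 5 fell and 0 rose in LKO mice (45.5% beside 40.3%), and 1 rose and 1 fell in LWT mice (18.2% beside 38.3%).

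Gsta2 fell by 1.15 in LKO mice (SE 0.25, adjusted p = 0.001), from a mean of 4.72 under vehicle to 3.57, while LWT mice were at 3.79 and 3.63. Treated LKO and LWT mice thus lay close together (-0.06, SE 0.25, adjusted p = 0.91), and LKO vehicle mice were the highest, though not called against LWT vehicle mice (0.93, SE 0.25, adjusted p = 0.0932). The difference between the effects was not called either (-0.99, SE 0.36, adjusted p = 0.122). Without LWT vehicle replicate 3 both were called (1.12 with adjusted p = 0.0148, and -1.18 with adjusted p = 0.0397), as they were with array weights (adjusted p 0.0353 and 0.0422). Mgst3 was higher in LKO than LWT mice under vehicle (0.58, SE 0.12, adjusted p = 0.012). Probes of the Gsta, Gstm and Ugt1a families may pick up near-identical relatives, so single names there are uncertain.

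For NADPH supply, Me1 (malic enzyme) rose by 1.20 in both genotypes (SE 0.42 in both, adjusted p = 0.029 in LWT and 0.028 in LKO mice). The call in LWT mice was lost without a filter on dim probes (adjusted p = 0.0547) and without LWT CL316243 replicate 4, 5 or 6 or LWT vehicle replicate 3 or 6 (adjusted p 0.0522 to 0.0681). That in LKO mice was lost without the filter (adjusted p = 0.0531), in a fit of only the LKO groups (0.0805) and without LKO CL316243 replicate 1 or LKO vehicle replicate 4 or 6 (0.0759 to 0.0801). Idh1 (cytosolic isocitrate dehydrogenase) rose by 0.30 in LWT mice and fell by 0.39 in LKO mice, with an interaction of -0.70 (SE 0.14, adjusted p = 0.0031). The rise in LWT mice was not called with the series table's values (0.22, adjusted p = 0.0707).

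Of 13 genes of detoxification and export, 1 rose and 5 fell in LWT mice (46.2% beside 38.3%), and 4 rose and 3 fell in LKO mice (53.8% beside 40.3%). Ugt1a6a, a glucuronosyltransferase, fell by 1.74 in LWT and 1.42 in LKO mice, and by 1.03 and 0.83 with normexp. Of 6 heme and iron genes, 3 fell in each genotype and 2 more were called higher in LKO mice (50% called in LWT beside 38.3%, and 83.3% in LKO beside 40.3%). These were Fth1 and Ftl1, which encode the ferritin subunits, at 0.15 and 0.20, but the differences were 0.0155 and -0.0158 with quantile normalization and -0.00687 and -0.0378 in the series table, none called. Both calls were also lost without a filter on dim probes (adjusted p 0.0976 and 0.0788) and in a fit of only the LKO groups (0.0715 and 0.0982). Fth1 was also not called with the replicate number as a block (adjusted p = 0.0508) or without LKO CL316243 replicate 1 or 2 or LKO vehicle replicate 2, 3 or 4. Ftl1 was not called without LKO CL316243 replicate 2 or 3 or LKO vehicle replicate 2, 4 or 5. Of the 3 superoxide and catalase genes, Cat fell by 0.65 in LKO mice and 0 were called in LWT mice by limma, where 1 had an unadjusted p under 0.05. That gene was Cat, at -0.26 (adjusted p = 0.0668), and the difference between its effects was not called (-0.40, adjusted p = 0.149). The fall of Cat in LWT mice was called with array weights (adjusted p = 0.0270), normexp (0.0439) and quantile normalization (0.0148). It was also called with the replicate number as a block (0.0158) and in the series table (0.00931). With that block the difference between the effects was called too (adjusted p = 0.0437).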

How the data were processed

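Each mouse gave 1 array of Agilent design, scanned in 1 colour. The scanner tables hold intensities per spot, background-subtracted by the authors. Their software was Agilent Feature Extraction (version 10.10.1.1 in the headers). The deposited series table holds log2 values. They matched quantile-normalized log2 median signals of the scanner tables over 31367 probes, with a median absolute difference of 0.0069 and 57.6% of values within 0.01. Each of its columns has a median of 8.08, with no centring on genes. These values served as an alternative.

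Each array held 62976 spots, and 59305 of them were gene spots (56605 probes). Outlier spots were dropped, log2 intensities had the array's 75th percentile subtracted, and spots of a probe were averaged. A probe stayed in where 1 group or more had it well above background on 4 or more of its 6 arrays and each group had 3 values. The brightest kept probe stood for its gene. Positions of probes are mm9, as the scanner tables give them. RefSeq promoters are GRCm38.p6.

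Files were read with data.table (version 1.17.8) in R 4.3.3, where limma 3.58.1 fitted 1 mean per group (prior df 2.17, residual df 20) for 5 comparisons, with Benjamini-Hochberg adjustment within each, and was tested on simulated data. The arrays lay on 3 slides of 8 with 2 mice of each group. P-values measure the spread between these mice. The median SE of a log2 difference was 0.13, and the number of arrays limits precision. No count of reads exists here, so intensity over background takes the place of depth.

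The text names Ppara, the 10 genes and, of the other pathway genes, the 3 largest called differences in each direction per comparison. The cell type markers, Fth1, Ftl1 and Cat were named after their values were seen. The lymphocyte list is not reported here in full. Members and lists were chosen with earlier results of these data known. Alternatives were normexp, quantile normalization, the series table, no filter, the mean over probes, array weights, blocks for slide and row or replicate number, fits of 2 groups, and leaving out each mouse. The numbers were checked for pairing: deviations of same-numbered mice of different groups had r of -0.18 to 0.42 over 36 pairs, 11 above 0.1. The median r was 0.055, beside -0.008 for differently numbered mice of different groups. These values do not settle whether the numbers mark pairs. The mice were not treated as pairs in the main fit, and the replicate number as a block was the alternative.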

Additional observations from a re-analysis of the deposited data

Results flagged for a closer look

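Over 44 combinations of gene and group, 3 held a mouse whose gap to its nearest neighbour was large for the range of its group (Dixon's criterion, which chance meets in about 1 in 20 groups). Nfe2l2 in LWT vehicle replicate 3 was at 2.31, below the other 5 mice. Ppara in LWT CL316243 replicate 3 was at 5.70 and Ppara in LKO CL316243 replicate 3 at 3.06, each the lowest of its group.

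The effect of CL316243 differed between the genotypes for 3 genes by the interaction test: Ppara (-1.23, rising by 0.55 in LWT and falling by 0.69 in LKO mice), Gclc (1.38) and Nqo1 (-0.68). The Ppara rise in LWT mice was not called under 3 other settings or without any of 9 mice, and its fall in LKO mice was 0.43 in size (-0.43) without LKO CL316243 replicate 3.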

How the results depend on the processing

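No called difference of the 10 genes or of Ppara changed sign under any setting, within any slide or without any mouse. The calls of Gclc, Hmox1, Nqo1, Srxn1 and Txnrd1 in LKO mice and of Gclm, Srxn1 and Txnrd1 in LWT mice held in all 12 other settings and without any mouse. Over all genes tested, the vehicle comparison called 251 genes, 635 with array weights and 167 with no filter on dim probes. The interaction called 1153 genes, 2158 with array weights and 664 with no filter. The comparison under CL316243 called 3393 genes, and 2203 in a fit of only the 2 groups, where 1 member in place of 4 was called. For the other pathway genes, array weights gave 4 in place of 2 under vehicle and 13 in place of 7 for the interaction. The differences of Fth1 (0.15) and Ftl1 (0.20) in LKO mice turned to -0.00687 and -0.0378 in the series table, and that of Ftl1 to -0.0158 with quantile normalization. The causes were not tested. Leaving out 1 mouse gave 2 to 4 pathway genes under vehicle and 7 to 11 for the interaction.

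With the replicate number as a block, 3 of 10 members were called for the interaction, Hmox1 added, and 4 in LWT mice, with Gsr lost and Hmox1 added. The block left the counts of members at 5 in LKO mice, 0 under vehicle and 4 under CL316243. The dim probes of Nqo1, Btrc and Ugt1a6a gave smaller differences with normexp.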
